A study of Mus musculus with 24 samples.

Results

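The SNARE proteins, the synaptotagmins and the other proteins of synaptic vesicle fusion form the gene group described here, in mouse spinal nerve roots from birth to 5 weeks. Its members were taken by gene symbol, as the numbered synaptotagmins (Syt), syntaxins (Stx), vesicle-associated membrane proteins (Vamp), SNAP proteins (Snap), syntaxin binding proteins (Stxbp), complexins (Cplx), synapsins 1 to 3 (Syn) and SV2 proteins (Sv2a, Sv2b, Sv2c). A gene was kept when any of its probes passed the background call on every array of 1 or more groups, and it was represented by its probe with the highest mean over the 24 arrays. Of 60 genes on the array with such a symbol, 54 were kept, and 101 of their 129 probes passed. These probes lay among the 36409 of 56605 gene probes that passed and were tested. The 6 genes that did not pass were Cplx4, Stx19, Syt8, Syt10, Syt14 and Syt17.

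Vesicles fuse with a target membrane when a VAMP on the vesicle zips together with a syntaxin and a SNAP protein on the target, with syntaxin binding proteins guiding the assembly. In neurons, synaptotagmins couple this step to calcium, complexins hold and then release the assembled complex, synapsins tether the vesicles in reserve and SV2 proteins are part of the vesicle membrane. The neuronal forms are made in the cell body and carried down the axon, while all cells, including the Schwann cells that wrap the axons of a root, use related SNAREs for traffic through the endoplasmic reticulum, the Golgi apparatus and endosomes.

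RNA came from efferent nerve fibres (EN, the ventral or motor root) and afferent nerve fibres (AN, the dorsal or sensory root) of segments L4–L6 in C57BL/6 mice that carry no transgene or treatment in the labels. Roots were taken at P0, 1W, 3W and 5W after birth, with 3 one-colour arrays in each of the 8 groups. The study used 9 animals of both sexes per age and pooled the fibres by group, and the labels do not tie an array to separate animals, so the p-values measure the spread between these arrays only. By its anatomy a root holds axons, Schwann cells and other cells and no neuronal cell bodies. Whether the dissected samples were free of neuronal cell bodies was not tested. In such a sample fewer cells of a type and less RNA per cell cannot be told apart. The titles write 0h for the age that the other labels give as P0.

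Expression is given as the log2 normalised signal of the deposited value table. A gene was called changed when its log2 difference exceeded 1, a fold change of 2, with an adjusted p under 0.05 in limma over all tested probes. Same-numbered EN and AN arrays of an age shared a slide. The arrays lay on 4 slides, and slide 4 held all 6 arrays at 3W and replicate 3 of both roots at 5W but no array at P0. The AN array of replicate 3 at 3W correlated least with the rest of its own group, with a mean r of 0.961. All 8 Schwann cell markers were above background on all arrays, whereas Tlx3 of the sensory neuron markers and Mnx1 of the motor neuron markers did not pass the filter in any group.

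Between the roots, the members called were higher in AN, and they were mostly synaptotagmins, synapsins, SV2 proteins and Cplx1. Of the 54 members, 13 were higher in AN at 1W, 8 at 3W and 7 at 5W, and none was lower at these ages. Over all tested probes, 2.41% were called higher and 0.371% lower in AN at 1W, 2.23% and 0.882% at 3W, and 2.49% and 0.821% at 5W. With only the 2 groups of a comparison in the fit, the counts were 2 at 3W, Syt13 and Syt16, and 0 at 5W, so the calls at these ages below rest on the spread shared by all 8 groups. At P0 no member was called in limma, against 0.327% of all tested probes in either direction, and 2 members had an unadjusted p under 0.05. Differences at P0 ran from -0.58 to 0.53. The median member differed by 0.22 at 1W, 0.21 at 3W and 0.33 at 5W, beside medians of -0.06, -0.03 and -0.03 over all tested probes.

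In all, 14 members were called higher in AN at 1 or more ages. Syt1, Syt5, Syt7, Syt16, Syn2 and Sv2a were called at all 3 later ages. With the pair of same-numbered arrays as a block the counts were 16, 11 and 9 at 1W, 3W and 5W. The counts moved with single arrays. At 1W the count was 3 without EN replicate 1, 7 without EN replicate 2 and 6 without AN replicate 3. At 3W it was 4 without EN replicate 1, 3 without EN replicate 2, 5 without EN replicate 3 and 4 without AN replicate 3, and at 5W it was 4 without AN replicate 2. Calls kept whichever array was left out were Cplx1, Syn1 and Syt7 at 1W, Syt5 and Syt16 at 3W, and Sv2a, Syt5, Syt13 and Syt16 at 5W.

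**Figure D1:**
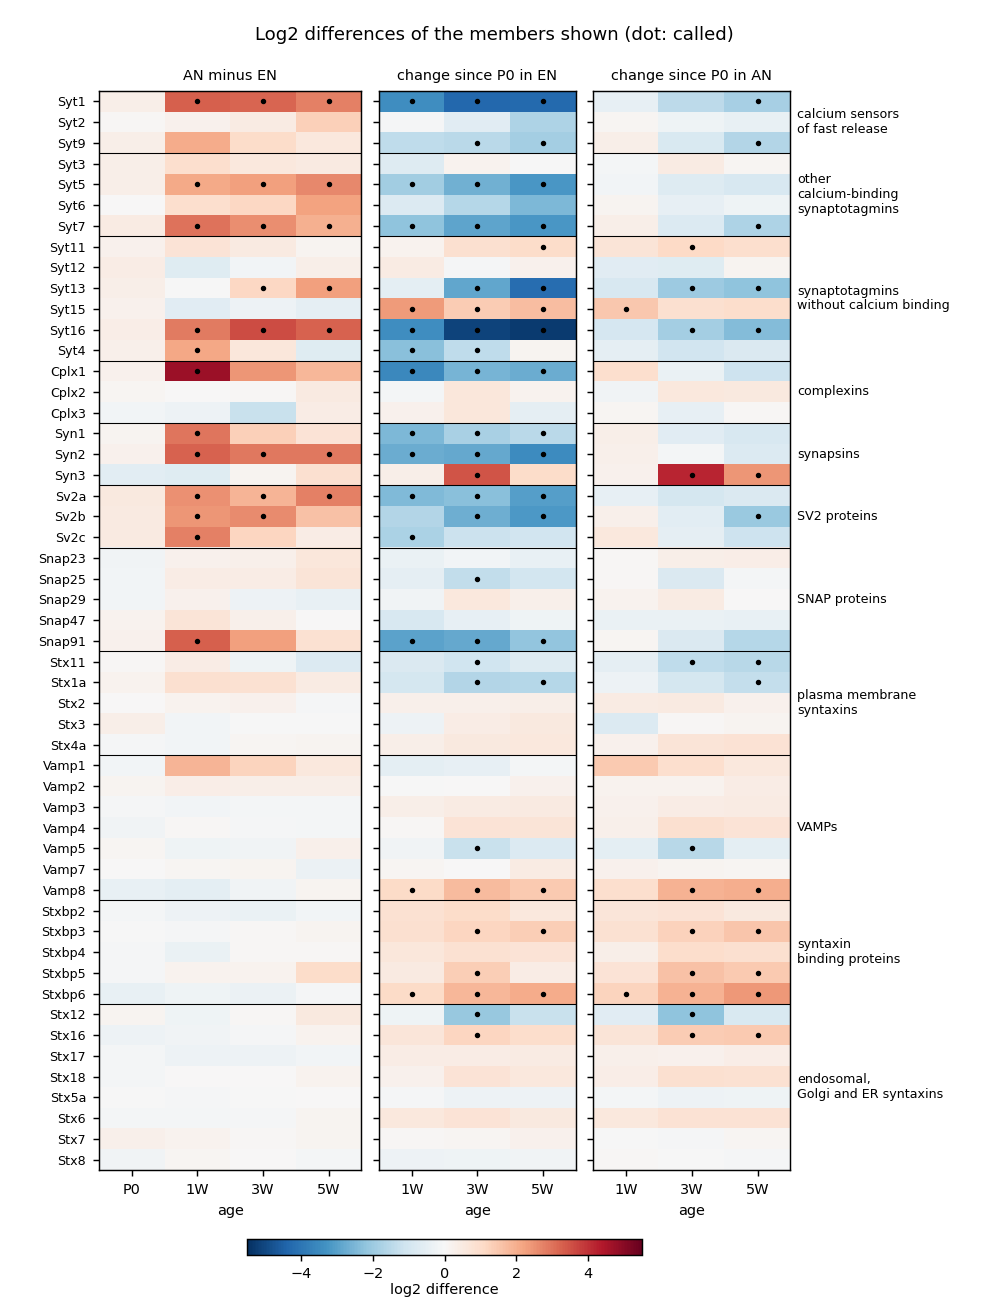
Log2 differences of single members, ordered by role, between AN and EN at each age and between each later age and P0 within each root (colour scale in log2 units, dots mark called differences). No dot lies in the P0 column between the roots, and the dots of the same panel at later ages are all higher in AN.

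Among the calcium sensors of fast release, Syt1 separated the roots after P0. Its probe lies at chr10:107935310-107935369 on the minus strand (build mm9). At P0 the EN arrays read 11.44, 11.72 and 11.90 and the AN arrays 11.93, 12.70 and 11.36, so the roots overlapped. At 1W the EN arrays read 7.21, 7.86 and 9.82 and the AN arrays 11.29, 11.44 and 11.96. Every AN array lay above every EN array, and AN was 9.65-fold higher (log2 difference 3.27 ± 0.74 SE, adjusted p = 0.0143). At 3W the EN arrays read 7.24, 6.89 and 7.97 and the AN arrays 9.77, 9.75 and 12.14, a 9.11-fold difference (adjusted p = 0.0146). At 5W they read 7.27, 7.47 and 7.47 against 10.18, 11.82 and 8.54, a 6.86-fold difference (adjusted p = 0.0275). The EN arrays lay close together at 5W, and the spread lay in AN, with replicate 2 high and replicate 3 low. A second Syt1 probe that passed differed by 1.49 at 1W and 1.05 at 3W, without a call, and by 2.22 at 5W, with one. The other sensors of this kind, Syt2 and Syt9, were not called between the roots. Syt9 differed by 2.04 ± 0.59 at 1W (adjusted p = 0.0609), and with the pair as a block it was called (adjusted p = 0.029).

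Of the other calcium-binding synaptotagmins, Syt5 and Syt7 were higher in AN at the 3 later ages and Syt3 and Syt6 were not called. Syt5 is found on dense-core vesicles. At 1W it read 8.97, 8.99 and 9.10 on the EN arrays and 11.01, 11.24 and 11.08 on the AN arrays, with little spread in either root. The differences were 2.09 at 1W, 2.26 at 3W and 2.62 at 5W (SE 0.47, adjusted p = 0.0141, 0.00742 and 0.00183). Syt7, a slow sensor with high calcium affinity that also acts in lysosome exocytosis, was dim. None of its EN arrays after P0 was well above background, with signals of 3.52, 3.90 and 3.65 at 1W against 6.36, 6.69 and 6.98 in AN. Its difference is therefore a bound, taken against the lowest signal measured well above background on the EN arrays. AN was at least 3.49-fold higher at 1W (adjusted p = 0.00616) and at least 1.65-fold higher at 3W (adjusted p = 0.0117). At 5W the call (adjusted p = 0.0444) has no such bound, since the AN signals of 4.91, 5.55 and 3.58 lay near that limit.

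Among the synaptotagmins without calcium binding, Syt4, Syt13 and Syt16 were called between the roots and Syt11, Syt12 and Syt15 were not. Syt16, an atypical member of the family, read 3.54, 4.42 and 5.47 on the EN arrays at 1W, where 1 of the 3 was well above background, and 7.23, 6.96 and 7.77 on the AN arrays. The difference was 2.84 ± 0.63 (adjusted p = 0.0127). No EN array was well above background later, and AN was at least 2.87-fold higher at 3W (adjusted p = 0.00193) and at least 1.79-fold higher at 5W (adjusted p = 0.00341). Syt4, which sits on dense-core vesicles, was 2.13 ± 0.48 higher in AN at 1W (adjusted p = 0.0153), with EN at 6.28, 6.63 and 6.95 and AN at 8.51, 8.77 and 8.96. At 5W its EN arrays were back at 9.20, 8.89 and 9.13 and overlapped with AN at 8.47, 8.95 and 7.85.

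Syt13, which lacks the calcium-binding residues, had another course in time from the vesicle genes above. Its probe lies at chr2:92795818-92795877 on the plus strand (mm9). At P0 the EN arrays read 11.52, 11.56 and 11.44 and the AN arrays 11.73, 11.88 and 11.85, a difference of 0.31 ± 0.33 with no call although the arrays did not overlap. At 1W both roots were close, at 10.77, 10.86 and 11.24 in EN and 10.87, 10.74 and 11.17 in AN. At 3W the roots parted, at 8.56, 8.78 and 8.66 in EN and 9.87, 9.94 and 9.61 in AN (difference 1.14 ± 0.33, adjusted p = 0.048). By 5W the EN arrays had reached 7.20, 7.38 and 7.40, with AN at 9.39, 10.79 and 8.59, a 4.79-fold difference (2.26 ± 0.33, adjusted p = 0.000302).

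Of the complexins, Cplx1, which clamps the assembled SNARE complex until calcium enters, had the widest gap of all members at 1W. Its probe lies at chr5:108947895-108947954 on the minus strand (mm9). At 1W the EN arrays read 7.46, 8.40 and 9.30 and the AN arrays 13.00, 13.07 and 13.14, a 25.8-fold difference (4.69 ± 0.85, adjusted p = 0.00513). At 3W AN replicates 1 and 2 read 10.46 and 10.20 and replicate 3 read 14.71, against 9.18, 8.98 and 9.89 in EN. The differences of 2.44 at 3W and 1.84 at 5W were not called (adjusted p = 0.106 and 0.229), although with the pair as a block the value at 3W was (adjusted p = 0.0351). Cplx2 and Cplx3 were not called at any age, and the probes that stand for Cplx2 are described with the repeats below.

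The synapsins bind vesicles to one another and to actin. Syn2 read 7.45, 8.27 and 9.16 in EN at 1W against 11.51, 11.48 and 11.69 in AN, and at 5W 7.39, 7.57 and 7.81 against 10.55, 11.96 and 9.02. Its differences were 3.26, 2.91 and 2.92 at 1W, 3W and 5W (SE 0.63, adjusted p = 0.00637, 0.00977 and 0.00762), and a second probe gave 4.24, 3.85 and 3.31, all called. Syn1 was 2.96 ± 0.58 higher in AN at 1W (adjusted p = 0.007), with 8.66, 9.06 and 9.49 in EN and 11.91, 12.05 and 12.12 in AN. At 5W its roots overlapped, with EN arrays at 10.04, 10.22 and 9.96 beside AN arrays at 10.98, 11.71 and 9.76. The brightest Syn3 probe was not called between the roots.

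The Syn1 and Cplx1 promoters are shown because both genes are expressed mainly in neurons and were called higher in AN at 1W whichever array was left out. They are the 250 bases before the RefSeq start (GRCm38.p6), Syn1 at chrX:20920919-20921168 and Cplx1 at chr5:108550028-108550277, both on the minus strand. Capitals mark motif letters.

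Syn1: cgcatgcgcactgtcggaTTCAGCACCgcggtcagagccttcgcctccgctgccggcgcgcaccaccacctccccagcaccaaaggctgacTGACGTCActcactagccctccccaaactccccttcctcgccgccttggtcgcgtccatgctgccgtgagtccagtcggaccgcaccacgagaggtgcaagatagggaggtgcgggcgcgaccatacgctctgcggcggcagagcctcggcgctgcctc
Cplx1: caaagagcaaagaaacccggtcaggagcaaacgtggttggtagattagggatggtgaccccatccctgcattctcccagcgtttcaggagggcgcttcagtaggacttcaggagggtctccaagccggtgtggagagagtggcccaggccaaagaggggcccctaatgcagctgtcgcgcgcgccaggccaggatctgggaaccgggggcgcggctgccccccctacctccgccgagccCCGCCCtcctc

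The letters searched, on both strands, were TTCAGCACC (the left part of RE1, the site of the repressor REST), TGACGTCA (the cyclic AMP response element), GGGCGG (the GC box), TATAAA and CCAAT. In Syn1 the RE1 letters lay 232 to 224 bases and the cyclic AMP element 159 to 152 bases before the start, and Cplx1 held a GC box. RefSeq promoters were matched to 42 of the 54 members and to 9 of the 14 called higher in AN. The RE1 letters occurred in 0.301% of 32851 promoters of the same length and, among the members, in Syn1. The cyclic AMP element occurred in 1.55% of all promoters and, among the members, in Syn1 and Stxbp3. A GC box was present in 29 of the 42 members and 7 of the 9 higher in AN, beside 32.7% of all promoters, TATAAA in 3 members beside 12.4% and CCAAT in 14 beside 33.8%. A member was counted when any of its promoters held the letters, with 55 promoters for the 42 members, while the shares are per promoter. The 2 are therefore not of the same unit. These are letter matches in a window, not measured binding.

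All 3 SV2 genes, which encode glycoproteins of the vesicle membrane, were higher in AN at 1W. Sv2a read 5.44, 6.70 and 6.89 in EN and 8.77, 8.65 and 9.12 in AN at 1W, and 5.74, 5.74 and 5.68 against 8.31, 9.91 and 7.31 at 5W. Its folds were 5.67 at 1W, 3.62 at 3W and 6.92 at 5W (adjusted p = 0.00712, 0.0316 and 0.00172). Sv2b was 2.43 higher at 1W and 2.59 at 3W (SE 0.65, adjusted p = 0.0414 and 0.0235). At 3W its AN arrays read 8.20, 8.05 and 11.85 against 6.72, 6.78 and 6.84 in EN, so replicate 3 of AN alone lay far above the rest. Sv2c was 2.77 ± 0.62 higher at 1W (adjusted p = 0.0136), from 8.92, 9.20 and 8.93 in EN to 11.67, 11.79 and 11.89 in AN.

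Of the genes with a Snap symbol, Snap91 was called between the roots at 1W. It encodes the clathrin adaptor AP180, which acts in vesicle retrieval and is no SNARE. Its EN arrays read 6.27, 6.93 and 7.94 and its AN arrays 10.23, 10.30 and 10.44 (difference 3.27 ± 0.69, 9.68-fold, adjusted p = 0.0103). Of the plasma membrane syntaxins, Stx1a, a target SNARE of neurons, differed by 0.87 ± 0.28 at 1W and was not called (adjusted p = 0.11).

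**Figure D2:**
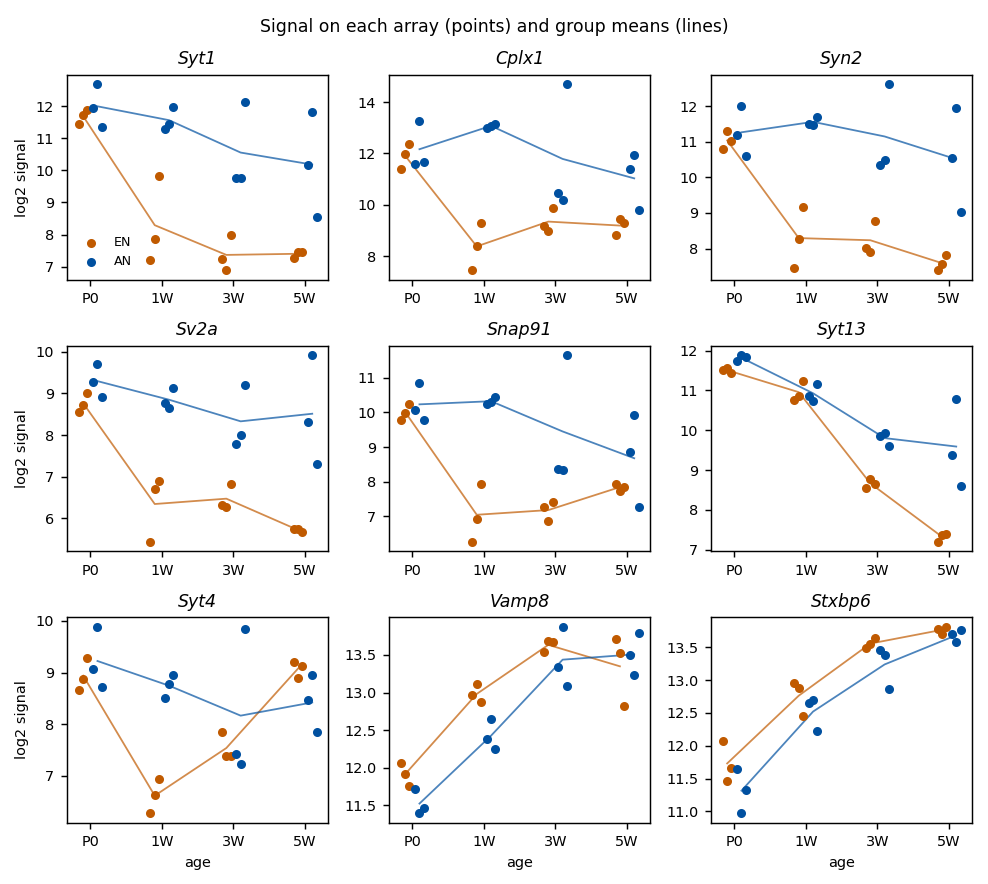
Log2 normalised signal of 9 members on each of the 24 arrays by age, EN in orange and AN in blue, with lines through the group means. Both roots overlap at P0 for Syt1, Cplx1, Syn2 and Snap91 and separate at 1W, whereas Syt13 separates at 3W and Vamp8 and Stxbp6 rise in both roots.

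In the fit of group means, none of the 7 VAMPs, 8 endosomal, Golgi and ER syntaxins or 6 syntaxin binding proteins was called between the roots at any age. Over all tested probes, 2.41%, 2.23% and 2.49% were called higher in AN at 1W, 3W and 5W, and 0.371%, 0.882% and 0.821% lower. The absence of calls among so few genes can therefore not be read as a trait of these roles. Over all 40 members not called, the differences ran from -1.22 (Cplx3 at 3W) to 2.22 (Syt6 at 5W). Both ends rest on wide spread, with an SE of 0.74 for Cplx3 and 1.13 for Syt6. Vamp1, a neuronal vesicle SNARE, differed by 1.89, 1.85 and 1.87 in the 3 pairs of same-numbered arrays at 1W. It was not called in the fit of group means (1.87 ± 0.64, adjusted p = 0.129) and was called with the pair as a block (± 0.50, adjusted p = 0.042). Syt6 at 5W was likewise called with that block (adjusted p = 0.0393).

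Markers of neurons differed between the roots too, most often at 1W. Summed over 12 pan-neuronal genes, the log2 level at 1W lay between 15.6 and 16.5 on the EN arrays and between 18.4 and 18.6 on the AN arrays, and 7 of the 12 were called higher in AN then, 2 at 3W and 1 at 5W. The 9 sensory neuron genes tested summed to 10.3 to 11.8 on the EN arrays at 1W and to 15.9 to 16.2 on the AN arrays, with 8, 2 and 1 of them called higher at 1W, 3W and 5W. On the AN arrays at 3W the sensory sum was 12.7, 12.3 and 17.5, and at 5W it was 14.4, 13.3 and 10.2. The same arrays stood out among the 14 members called between the roots. AN replicate 3 at 3W was the highest of its group in 13 of them, AN replicate 3 at 5W the lowest in 14, EN replicate 1 at 1W the lowest in 14 and AN replicate 2 at P0 the highest in 14. In the pair of replicate 3 at 5W, the members called at that age were all higher in AN, but this pair was part of those calls. The differences ran from 0.91 for Syt7, which was dim, to 1.75 for Syt5. Of the other members among the 14, Syt4 (-1.28), Snap91 (-0.59), Sv2c (-0.30) and Syn1 (-0.20) were lower in AN in that pair. The rest were higher. The part of these markers in the member differences was not tested.

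**Figure D3:**
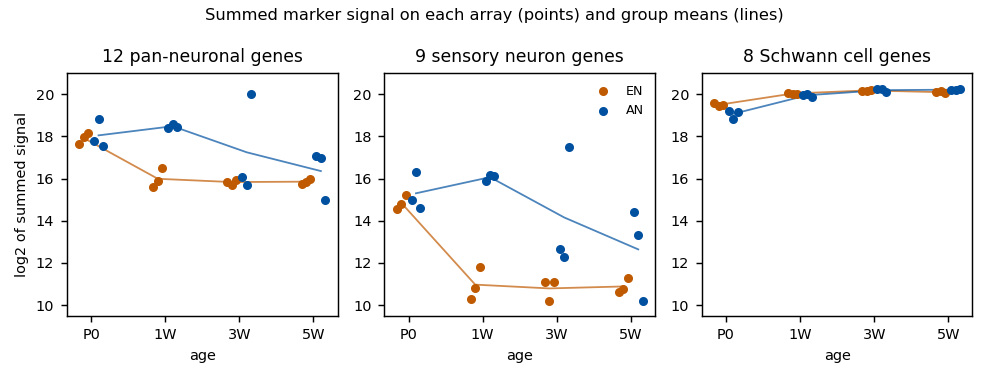
Summed level (log2) of the pan-neuronal, sensory neuron and Schwann cell marker lists on each of the 24 arrays, EN in orange and AN in blue. The neuronal sums part between the roots at 1W and spread widely in AN at 3W and 5W, where the sensory sum runs from 10.2 to 17.5, and the Schwann cell sum stays between 18.9 and 20.3.

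Markers of other cell types moved with the root too. Of the Schwann cell markers 2 of 8 were lower in AN at P0 and none was called later. Of 7 astrocyte markers 3, 1 and 4 were higher in AN at 1W, 3W and 5W, and of 7 oligodendrocyte markers 2, 0 and 3 were higher, with Opalin well above background on 6 arrays. Of the 5 motor neuron markers tested, 1 was higher in AN at 1W and 1 lower at each of the 3 later ages. No skeletal muscle or macrophage marker was called between the roots. Their part in the member differences was not tested either.

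Within EN, neuronal vesicle genes fell after P0, as did sensory neuron markers. The 9 sensory neuron genes summed to 14.6, 14.8 and 15.2 on the EN arrays at P0. The AN arrays then read 15.0, 16.3 and 14.6, so the roots overlapped at P0. On the EN arrays at 1W the sum was 10.3, 10.8 and 11.8. The part of this fall in the member falls was not tested. Against P0, 12 members were lower in EN at 1W, 19 at 3W and 14 at 5W, beside 5.67%, 14.4% and 14.5% of all tested probes called lower. Within AN none was lower at 1W, 5 were at 3W and 8 at 5W, beside 3.62%, 12.8% and 12.7%. All 3W arrays and no P0 array lay on slide 4, so age and slide cannot be told apart at 3W. With the slide as a block, 9 of the 26 EN calls at 3W in either direction and 8 of the 12 AN calls were kept. The falls kept at 3W were those of Syt1, Syt13 and Syt16 in EN and of Stx11 and Syt13 in AN. At 1W 3 members in AN had an unadjusted p under 0.05 with a lower value. Without AN replicate 3, the members called in either direction at 3W in AN numbered 25 in place of 12, where 27.8% of all tested probes were called with every array. Comparisons with P0 within a root share its P0 arrays, and the comparisons between roots share their arrays with those over time.

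Syt16, Syt1, Syt13, Syn2, Syt7 and Syt5 had the largest fitted falls from P0 to 5W in EN, where the places of Syt16 and Syt7 rest on signals below background at 5W. Syt1 fell by 4.29 ± 0.74 on the log2 scale (19.5-fold, adjusted p = 7.72e-05) and Syt13 fell by 4.18 ± 0.33 (18.1-fold, adjusted p = 5.9e-09). Syn2 was 10.9-fold lower (adjusted p = 0.000145) and Syt5 9.11-fold lower (adjusted p = 1.4e-05). Syt16 went from 7.86, 7.77 and 8.07 at P0 to 2.59, 2.64 and 2.67 at 5W, where it was not well above background, and was at least 7.26-fold lower (adjusted p = 1.19e-06). Syt7 went from 5.71, 6.25 and 5.82 to 2.84, 2.61 and 2.67 and was at least 1.84-fold lower (adjusted p = 0.000114). Over the same span the differences were -3.15 for Sv2b, -3.04 for Sv2a, -2.71 for Cplx1, -2.16 for Snap91, -1.85 for Syt9, -1.56 for Stx1a and -1.47 for Syn1, all called. With the slide as a block in limma, the EN falls of Snap91 and Syn1 were -1.80 and -1.21 and no longer called (adjusted p = 0.0628 and 0.12). The calls of Syn1 and Syt9 were also lost on leaving out single arrays.

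In EN the falls of Cplx1, Snap91 and Syn1 were already present at 1W, at -3.52, -2.96 and -2.48, and the later differences of these genes from P0 were no larger. Syt4 is the member whose EN course turned, with -2.32 at 1W, -1.40 at 3W and 0.13 at 5W, and only the first 2 values were called. For Syt13 the EN difference from P0 was -0.55 at 1W, with no call, and then -2.84 at 3W and -4.18 at 5W, both called.

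In AN the 6 largest falls from P0 to 5W were smaller. The differences were -2.37 for Syt16 (adjusted p = 0.0039), -2.23 for Syt13 (adjusted p = 1.57e-05), -2.04 for Sv2b (adjusted p = 0.0139), -1.82 for Syt1 (adjusted p = 0.0471), -1.68 for Syt7 (adjusted p = 0.02) and -1.62 for Syt9 (adjusted p = 0.0286). With the slide as a block, the falls of Syt1, Syt7 and Syt9 were -1.27, -1.48 and -1.61 and no longer called (adjusted p = 0.181, 0.0721 and 0.0655), and their calls were also lost on leaving out single arrays. Syt9 read 7.89, 9.26 and 8.06 in AN at P0 and 6.90, 6.95 and 6.50 at 5W. Of the 14 members lower in EN at 5W and the 8 lower in AN, 7 were the same, which is 50% of the EN list and 87.5% of the AN list. The overlap over all tested probes was not counted, so these shares cannot be called high or low. Stx11, a syntaxin of immune cells, was the AN fall not called in EN at 5W, at -1.53 in AN against -0.69 in EN. As to markers, 10 of the 12 pan-neuronal genes and 7 of the 9 sensory neuron genes fell from P0 to 5W in EN, and 7 and 4 in AN, and their part in the falls of the members was not tested.

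A fall called in one root and not in the other does not show that the roots differed, and the change in the AN to EN difference since P0 was tested directly. At 1W and 3W it was called in limma for no member, beside 0.0632% and 0.525% of all tested probes, with 16 and 6 members at an unadjusted p under 0.05. At 5W it was called for 1 member, Syt13, beside 0.931%. The AN to EN difference of Syt13 widened by 1.95 ± 0.46 between P0 and 5W (adjusted p = 0.0473). For Syt1 the widening was 2.96 ± 1.04 at 1W (adjusted p = 0.401) and for Cplx1 4.43 ± 1.21 (adjusted p = 0.251), so the root difference of these genes was past the threshold at 1W without its change since P0 being so. The widening of Syt13 at 5W was 1.35 without AN replicate 2 at 5W and 2.45 without AN replicate 3, both still called. The Syt13 call was lost on leaving out any of the other 10 arrays at P0 and 5W. The count at 5W was 5 without AN replicate 3 at 5W.

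**Figure D4:**
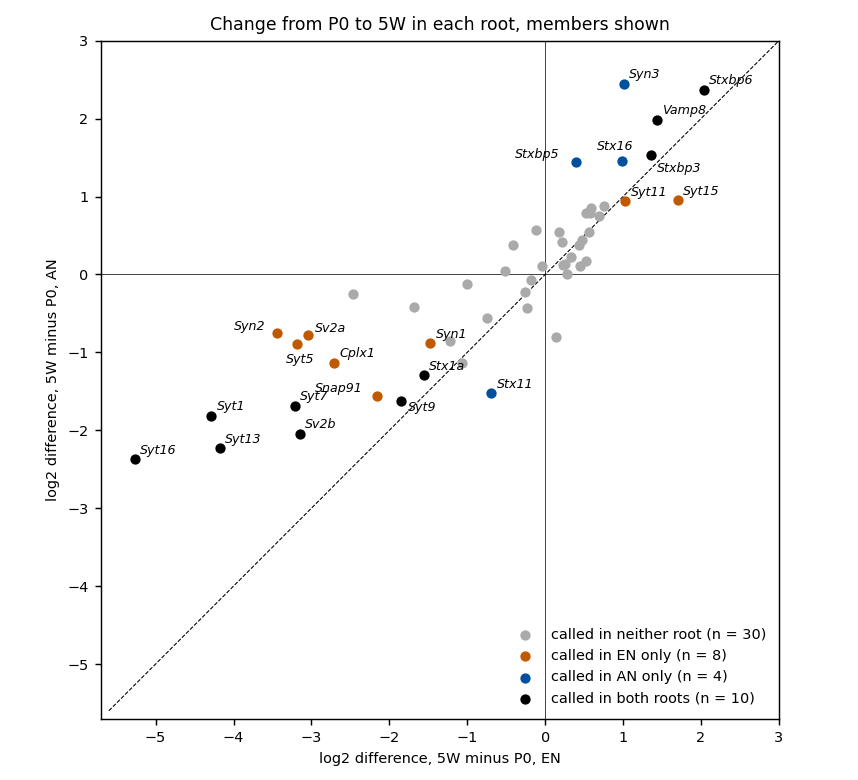
Log2 difference between 5W and P0 for single members, EN on the horizontal and AN on the vertical axis, coloured by the root in which the difference was called, with a dashed line of equality. Syt16, Syt1 and Syt13 lie far to the left and above the line, and Stxbp6, Vamp8 and Stxbp3 are called higher in both roots.

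A smaller set rose with age, Stxbp3, Stxbp6, Vamp8, Syt11 and Syt15 at 5W in EN and Stxbp3, Stxbp5, Stxbp6, Vamp8, Stx16 and Syn3 in AN. The Syn3 call did not hold with the slide as a block, as described below. Against P0, the EN rises numbered 3 at 1W, 7 at 3W and 5 at 5W, beside 6.25%, 16.1% and 15.4% of all tested probes. In AN they were 2, 7 and 6, beside 4.96%, 15% and 15.2%. Stxbp3, Stxbp6 and Vamp8 were called higher at 5W in both roots, which is 60% of the 5 rises in EN and 50% of the 6 in AN. Here too the overlap over all tested probes was not counted.

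Stxbp6, also named amisyn, binds syntaxin and SNAP-25 in place of a VAMP. Its probe lies at chr12:45953493-45953552 on the minus strand (mm9). In EN it read 12.07, 11.46 and 11.66 at P0 and 13.78, 13.71 and 13.81 at 5W, and in AN 11.64, 10.97 and 11.33 and then 13.70, 13.59 and 13.77, with no overlap between the ages. It was 4.10-fold higher at 5W in EN (2.04 ± 0.20, adjusted p = 9.92e-08) and rose by 2.37 in AN (adjusted p = 1.35e-08). Vamp8, an endosomal SNARE, rose by 1.43 ± 0.22 in EN (adjusted p = 1.84e-05) and by 1.99 in AN (adjusted p = 3.98e-07), from 11.71, 11.39 and 11.46 to 13.50, 13.23 and 13.79 in AN. Stxbp3, the partner of syntaxin 4 in general exocytosis, rose by 1.36 ± 0.13 in EN and by 1.53 in AN (adjusted p = 1.16e-07 and 2.63e-08), with EN at 10.87, 10.64 and 10.72 at P0 and 12.03, 12.22 and 12.08 at 5W.

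The Stxbp3 promoter is shown as that of a gene which rose in both roots and, like Syn1, holds the cyclic AMP letters. It lies at chr3:108840503-108840752 on the minus strand (GRCm38.p6, RefSeq), and capitals mark the CCAAT letters on the other strand, the cyclic AMP element and 2 GC boxes.

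Stxbp3: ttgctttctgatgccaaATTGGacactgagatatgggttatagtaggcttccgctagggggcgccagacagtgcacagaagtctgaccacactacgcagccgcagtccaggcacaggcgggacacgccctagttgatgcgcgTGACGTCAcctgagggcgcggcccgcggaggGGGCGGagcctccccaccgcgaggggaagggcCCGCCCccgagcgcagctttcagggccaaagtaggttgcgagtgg

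Syt15, a synaptotagmin without calcium binding, rose early. In EN it read 5.84, 6.00 and 5.88 at P0 and 8.12, 8.31 and 8.27 at 1W (2.33 ± 0.21, adjusted p = 6.14e-07), and it was 1.70 above P0 at 5W. In AN it was 1.48 above P0 at 1W, with a call, and 0.96 above P0 at 5W, without one. Syt11, which acts in endocytosis and phagocytosis, rose by 1.03 in EN at 5W (adjusted p = 0.00559), from 12.97, 13.15 and 13.38 to 14.10, 14.28 and 14.20. In AN at 5W, Stx16 of the trans-Golgi network rose by 1.46 (adjusted p = 2.32e-06), from 11.06, 11.71 and 11.51 to 12.68, 13.14 and 12.84, and Stxbp5, the inhibitor tomosyn, rose by 1.45 (adjusted p = 0.00139), from 8.24, 8.82 and 8.19 to 9.60, 9.89 and 10.11. Of the 8 Schwann cell markers, 3 rose from P0 to 5W in EN and 5 in AN, and their part in these rises was not tested.

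For some members the brightest probe and the gene's other probes gave different answers. Syn3 was the largest rise in AN at 5W by its brightest probe (2.45, adjusted p = 0.0344), and the other genes in this account, Stx12, Vamp5, Snap25, Snap23 and Cplx2, were chosen after their values were seen. Probe stretches are shown because several of the brightest probes hold simple repeats, which capitals mark. Each is a window of 30 bases of the 60-base probe at the mm9 position the files give.

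Snap25 brightest, chr2:136607709-136607738, plus strand: CACACACACACACACACACAaagtggattt
Snap25 second probe, split over a gap on chromosome 2: agtgatgcttacaaaaaagcctggggcaat
Syn3 brightest, chr10:85586568-85586597, minus strand: aaagagagagaaaagGAGAGAGAGAGAcag
Syn3 second probe, chr10:85511650-85511679, minus strand: acaggtttttaaaaacaggaagacattggc
Stx12 brightest, chr4:132418202-132418231, minus strand: agtaagaacctatctcaaaaagaaaaaagg
Stx12 second probe, chr4:132409418-132409447, minus strand: tttgggaagctctaataaacctattcctag
Vamp5 brightest, chr6:72318148-72318177, minus strand: agataaaacatcaacaatcataaaataaaa
Snap23 brightest, chr2:120425768-120425797, plus strand: agatACACACACACACACACACACACAtga

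Repeats of at least 12 bases were present in 4 of the 54 chosen probes, those of Cplx2, Snap23, Snap25 and Syn3, beside 4.95% of the 36409 tested probes. The 2 Cplx2 probes are placed on different chromosomes and both consist almost wholly of repeats, with runs of 44 and 58 bases, so the Cplx2 values cannot be assigned to that gene from these files.

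Snap25, the neuronal target SNARE, differed between the roots or not according to the probe. Its brightest probe read 13.19, 13.01 and 13.13 in EN and 13.89, 13.43 and 13.17 in AN at 1W, a difference of 0.39 with no call. The second probe, dimmer and split over a genomic gap, read 2.49, 3.24 and 3.59 in EN and 6.88, 7.18 and 6.97 in AN, and it was called (adjusted p = 0.0108). Since none of its EN arrays was well above background, AN was at least 4.38-fold higher by this probe. The count of members higher in AN at 1W does not include Snap25, since the rule takes the brightest probe.

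Stx12, an endosomal syntaxin, and Vamp5, a VAMP of muscle and other non-neuronal cells, fell at 3W by their brightest probes and did not by their others. Stx12 read 14.76, 14.67 and 14.55 in EN at P0 and 12.69, 12.38 and 12.62 at 3W, a called difference of -2.10, while its other probes gave 0.39 and 1.06, the latter called. Vamp5 gave -1.21 in EN at 3W by its brightest probe and 1.20 by its other probe, both called. Syn3 rose by 3.45 in EN at 3W by its brightest probe and by 1.49 by another, both called. That other probe was dim, with EN arrays at 2.49, 3.75 and 4.21 at P0 and 4.66, 6.00 and 4.26 at 3W. The lowest signals well above background on these arrays were 4.74, 4.93 and 5.57, then 4.69, 4.92 and 5.02. Only replicate 2 at 3W exceeded its limit, so the size of the 1.49 difference is not resolved. Syn3 fell by 1.52 by the second probe shown above, also called, and gave -0.60 and -0.69 by the others.

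These brightest probes followed the slide. The 8 arrays of slide 4 read 12.1 to 13.0 for Stx12 against 13.8 to 15.2 on the other 16 arrays, 10.8 to 11.9 for Vamp5 against 12.1 to 13.2, and 12.1 to 13.5 for Syn3 against 7.97 to 11.0, none overlapping. With the slide as a block, the 3W to P0 difference in EN was 0.59 for Stx12 and 0.48 for Vamp5 in place of falls. Between P0 and 5W on slide 3, which held both ages, Stx12 differed by -0.20 in EN and 0.46 in AN, Vamp5 by -0.20 and 0.35 and Syn3 by 0.04 and 1.34. On the same slide Syt1 differed by -4.34 in EN and -0.20 in AN, and Stxbp6 by 2.15 and 2.44. No slide held arrays of both P0 and 3W.

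**Figure D5:**
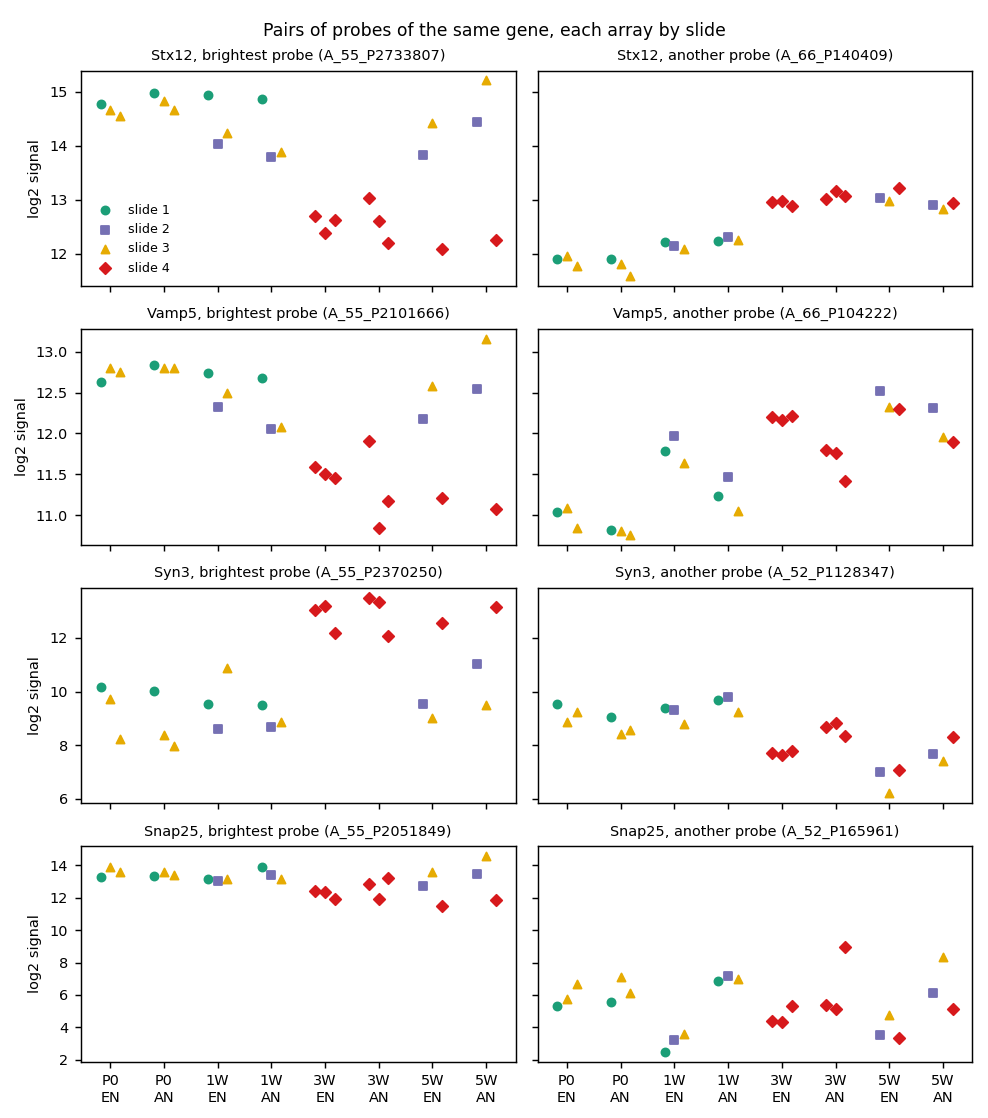
Log2 signal (vertical) of the brightest probe (left) and another probe (right) of Stx12, Vamp5, Syn3 and Snap25 on each of the 24 arrays by age and root (horizontal), with colour and shape for the slide. On the brightest probes of Stx12, Vamp5 and Syn3 the 8 arrays of slide 4 lie apart from the other 16, and for Snap25 they overlap.

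In the 10 comparisons between roots at an age and between later ages and P0, 26 of the 54 members were never called, with differences between -2.46 and 2.22. The share of all tested probes never called in these comparisons was not counted, so the number cannot be read as a trait of the members. The 26 members include Vamp2 and Vamp3, the VAMPs of synaptic and of constitutive vesicles, Stx4a of the plasma membrane, Stx6 and Stx7 of the Golgi apparatus and endosomes, Vamp7 of lysosomes, and Stxbp2. Cplx2 and Snap23, whose chosen probes hold repeats, are among them too. Vamp3 read between 14.18 and 15.00 on all 24 arrays. Between neighbouring later ages few members moved. From 1W to 3W 3 were called in EN and 4 in AN, beside 11.7% and 12.6% of all probes, and from 3W to 5W 1 in EN, beside 1.12%, and 0 in AN in limma, beside 1.68%, where 6 had an unadjusted p under 0.05. Every 3W array and no 1W array lay on slide 4, so age and slide cannot be told apart in the step from 1W to 3W.

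Other genes of the release pathway, taken as fixed lists, were called mostly higher in AN, with 1 exception. Of 16 active zone and priming genes, 6 were higher in AN at 1W, 5 at 3W and 5 at 5W. Cadps, which primes dense-core vesicles, was 3.88 higher at 1W and Rims3, of the active zone, was 3.21, 2.99 and 2.81 higher at the 3 later ages. Of 21 other vesicle membrane genes tested, 9, 6 and 7 were higher and Rph3a, a Rab3 effector, was lower at 3W and 5W, with differences of -2.03 and -2.68. The vesicle GTPase Rab3c was 4.52, 3.39 and 3.09 higher, and Slc17a6, a vesicular glutamate transporter of sensory neurons, 4.08, 3.67 and 2.96 higher.

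Of 14 genes of SNARE disassembly and endocytosis 4, 3 and 2 were higher in AN, with Napb, a neuronal form of the disassembly factor SNAP, at 2.41 and Amph, the endocytic protein amphiphysin, at 1.40 at 1W. None of 15 ER and Golgi SNAREs was called between the roots at any age. Beside 2.41%, 2.23% and 2.49% of all tested probes called higher at 1W, 3W and 5W, that cannot be read as a trait of so short a list. Of 7 extended and like synaptotagmins tested, 2 were higher at each later age, and Sytl3, a Rab27 effector, was higher in AN at P0 too, by 1.46 at P0 and then 3.37, 4.79 and 3.66. From P0 to 5W in EN, 8 of the active zone, 8 of the vesicle membrane, 6 of the disassembly, 1 of the ER and Golgi and 1 of the extended synaptotagmin genes fell, and 3, 2, 0, 3 and 0 rose. In AN 2, 3, 0, 1 and 1 fell and 2, 1, 0, 2 and 0 rose. Over all tested probes 14.5% were called lower and 15.4% higher in EN over this span, and 12.7% and 15.2% in AN. Counts near those shares cannot be read as a trait of a list.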

How the data were processed

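Whole mouse genome arrays were scanned for 24 RNA samples, 3 in each of 8 groups. The authors extracted signals with Agilent Feature Extraction 10.7.1.1, normalised them between arrays by quantiles and deposited log2 values, which were used as given. The deposited scanner intensity values served for background calls and for alternatives. Each column of the table correlated at 0.9955 to 0.99991 with its own array's scanner intensity and at no more than 0.99011 with another's, so scale and order are known. The 138 control rows were left out of 56743.

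The number of arrays limits the precision. Median intensity ran from 45.4 to 191 across arrays, and the lowest log2 value well above background from 3.71 to 5.87.

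One model with 8 group means was fitted to all tested probes (limma 3.58.1, R 4.3.3), with Benjamini-Hochberg adjustment over the 36409 probes of each comparison, and the step was tested on simulated data. The scripts used Python 3.11.15, pandas 2.3.3, numpy 2.4.6 and matplotlib 3.10.9. The members, roles, marker lists and pathway lists were chosen with earlier results of these data known. Members named with values are those called between roots at any age and the 6 largest called rises and falls from P0 to 5W in each root, and the rest are given by role. Same-numbered AN and EN arrays share a slide, and the deviations of the 12 such pairs correlated at 0.107 to 0.646, so the pair as a block is given where it changes a call, beside the main model without it. Alternatives were normexp background correction (offset 50), 75th percentile and quantile scaling, other filters, array weights, slide, scan and replicate blocks, the mean over a gene's probes and leaving out each array. Symbols are those of the array design. Probes were not placed in exons or UTRs, since no annotation of build mm9 was used here. The counts cover all 54 members, and 2 of these and some probe sequences are not reported here by name or letters.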

Additional observations from a re-analysis of the deposited data

Results flagged for a closer look

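The change of the AN to EN difference between P0 and 5W passed its own test for Syt13 among the 54 members. The difference grew by 1.95 on the log2 scale (limma, adjusted p = 0.0473), from 0.31 at P0 to 2.26 at 5W. On the AN arrays at 5W Syt13 read 9.39, 10.79 and 8.59, all above the highest EN array at 7.40. The call for the change since P0 was lost on leaving out most single arrays of these ages, as given above.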

How the results depend on the processing

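Counts of members called are given. With array weights, 3W against P0 in AN gave 25 in place of 12, and the change of the root difference since P0 gave 10, 1 and 2 at 1W, 3W and 5W in place of 0, 0 and 1. Without a fold limit the counts since P0 were 23 at 1W and 30 at 5W in EN, and 10, 23 and 26 at 1W, 3W and 5W in AN. With normexp, 1W against P0 in AN gave 1 and the 5W change of the root difference 0, and without a filter the latter was also 0. With only the groups compared in the fit, AN against EN gave 2 at 3W and 0 at 5W, and the change of the root difference 8, 1 and 0 at 1W, 3W and 5W. At an unadjusted p under 0.05 with the fold limit, that change gave 14, 6 and 8. With the slide as a block, 3W against P0 in EN gave 11 in place of 26 and the 3W change of the root difference 1. With the scan as a block these were 13 and 1. In 3W against P0, the slide block turned the sign in EN of Snap25 (0.77), Stx12 (0.59) and Vamp5 (0.48) and in AN of Stx12 (0.48) and Vamp5 (0.18), and the scan block in EN of Snap25 (0.60), Stx12 (0.20) and Vamp5 (0.27) and in AN of Stx12 (0.089). The cause was not tested.

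The replicate block gave 0, 13, 8 and 8 calls for AN against EN at P0, 1W, 3W and 5W, 14, 26 and 20 in EN and 2, 12 and 14 in AN since P0, and 0, 0 and 1 for the change of the root difference, and it lost Sv2b and gained Syt9 between the roots at 1W, lost Sv2c at 1W in EN and gained Stx12 at 5W in EN. Leaving out each array gave 0 to 0, 3 to 11, 3 to 9 and 4 to 8 calls between the roots at P0, 1W, 3W and 5W. Since P0 it gave 12 to 14, 21 to 26 and 17 to 21 in EN and 2 to 3, 10 to 25 and 10 to 20 in AN, and for the change of the root difference 0 to 0, 0 to 0 and 0 to 5. Of 117 single called values, 25 lost the call and 5 turned with the slide block, 24 and 4 with the scan block, 18 lost it with only the groups compared, and 14 with the mean over a gene's probes. With 3 arrays a group and pooled fibres, small differences of dim genes such as Syt7 are not resolved.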
